A study of Rattus norvegicus with 6 samples.

Results

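The genes described here are 35 listed DNA repair and damage checkpoint genes of the rat, measured in liver after dosing with a brominated compound. They were chosen by name, as genes of base excision, nucleotide excision, mismatch and double-strand break repair, direct reversal of alkylation and checkpoint signalling. The rule names genes and no measured value, but the list was drawn up with earlier results of these data known. A probe was matched to 28 of the 35, against 15284 genes named in all. Of the 28, 27 passed the filter on dim probes, against 11111 named genes tested. All 6 arrays read each of the 27 well above background. No probe was matched to Lig3, Msh6, Ercc5, Prkdc, Tp53bp1, Atr or Rpa1, which are not analysed here. Only 44.6% of the probes were named, so the array may still hold probes for these genes.

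The BBMP group held 3 male Sprague-Dawley (Crl:CD(SD)) rats dosed at 1000 mg/kg/day with BBMP, the flame retardant 2,2-Bis(Bromomethyl)-1,3-Propanediol. The corn oil group held 3 male rats of the same strain that received corn oil. All rats were 5 weeks old at purchase and ate a basal diet. The study's design text and sample titles give 28 days and its treatment protocol gives 9 weeks, so the length of dosing is uncertain. One liver RNA sample per rat was labelled with Cy3 and hybridised to 1 Agilent array, so that 3 arrays stood on each side, and this number limits the precision of every difference below.

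Cells mend DNA by several routes. In base excision repair a glycosylase removes a damaged base, an endonuclease opens the strand, and a polymerase and a ligase close it. Nucleotide excision repair cuts out a stretch around a bulky lesion, mismatch repair corrects copying errors, and double-strand breaks are either joined end to end or repaired from a homologous copy. Breaks and stalled replication forks also activate the kinases ATM and ATR, which act on CHEK1 and CHEK2 and thereby hold the cell cycle. Many of these proteins are regulated after translation, and their mRNA levels in liver, where most hepatocytes do not divide, need not follow their activity. BBMP caused tumours at several sites in rodent bioassays, and the study compared liver expression with and without it.

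Promoter sequences are shown for the listed genes with an E2F-type motif, because E2F factors drive many repair and checkpoint genes in dividing cells. Ogg1 is shown as the only gene, among the 3 of smallest p (with Chek2 and Xpa), that the promoter set used here held. This RefSeq (GRCr8) set held promoters for 30 of the 35 genes, and the 250 bases before each annotated start were searched on both strands. An E2F word (TTTGGCGC, TTTCCCGC, TTTCGCGC or TTTGCCGC) lay in 3 of the 30, or 10.0%, against 1.73% of all 33469 promoters of that length. The Sp1 word GGGCGG lay in 20 of the 30 (66.7%, against 30.5% of all promoters), the NF-Y word CCAAT in 12 (40.0%, against 34.0%) and the CHR word TTTGAA in 3 (10.0%, against 16.2%). A match is a description of the letters and not a binding site. Capitals mark the E2F word in Ung, Atm and Chek1 (read on the opposite strand in Atm and Chek1) and the Sp1 word in Ogg1. Each is printed from 5′ to 3′ in the direction of its gene.
Ung (chr12:48154046-48154295, minus strand): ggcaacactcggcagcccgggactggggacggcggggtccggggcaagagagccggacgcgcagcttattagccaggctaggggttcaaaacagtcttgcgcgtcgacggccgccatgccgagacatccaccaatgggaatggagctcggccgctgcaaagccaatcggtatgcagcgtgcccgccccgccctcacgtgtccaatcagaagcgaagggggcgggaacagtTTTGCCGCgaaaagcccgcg
Atm (chr8:62828630-62828879, minus strand): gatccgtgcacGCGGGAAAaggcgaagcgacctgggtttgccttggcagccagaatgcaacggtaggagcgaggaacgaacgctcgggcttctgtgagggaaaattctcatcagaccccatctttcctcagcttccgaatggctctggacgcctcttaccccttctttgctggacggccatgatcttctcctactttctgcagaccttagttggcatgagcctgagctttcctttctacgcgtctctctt
Chek1 (chr8:44629844-44630093, minus strand): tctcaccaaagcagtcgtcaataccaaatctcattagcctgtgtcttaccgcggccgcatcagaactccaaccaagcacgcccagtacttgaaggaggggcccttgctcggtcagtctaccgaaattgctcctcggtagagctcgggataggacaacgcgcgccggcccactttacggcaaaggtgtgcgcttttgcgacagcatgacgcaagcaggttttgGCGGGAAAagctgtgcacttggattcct
Ogg1 (chr4:148030336-148030585, plus strand): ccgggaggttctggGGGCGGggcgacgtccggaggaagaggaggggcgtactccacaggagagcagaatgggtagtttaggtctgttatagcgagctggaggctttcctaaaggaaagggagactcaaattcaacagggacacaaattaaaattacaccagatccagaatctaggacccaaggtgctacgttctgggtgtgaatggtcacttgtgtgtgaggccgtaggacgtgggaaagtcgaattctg
Between the E2F word and the annotated start lay 12 bases in Ung, 20 bases in Chek1 and 231 bases in Atm, and 230 bases lay between the Sp1 word and the start of Ogg1. The 3 genes with the E2F word did not share a direction. Their log2 differences between BBMP and corn oil were −0.09 for Ung, −0.04 for Chek1 and 0.17 for Atm.

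Levels are given as the log2 of the processed spot signal minus the log2 of the array's 75th percentile, so that 0 is that percentile, and levels of different probes are not compared. Differences are BBMP minus corn oil on this log2 scale, with the standard error (SE) and 95% interval of the limma fit. That percentile ranged from 450.1 to 570.4 intensity units, 60.1% to 64.4% of the probes on an array were well above background, and arrays correlated with each other at 0.986 to 0.992. The array of corn oil rat 2 stood apart on the first principal component, which carried 32.8% of the variance, with a score of −52.5, against 20.0 to 29.1 for the BBMP arrays and −15.1 and −9.84 for the other corn oil arrays. The arrays came from 2 slides with 2 scan times and neither held both groups, so slide, scan time and treatment cannot be told apart. Nothing in the labels beyond the animal separates the replicates, and p-values measure the spread between these 6 animals. All 12 hepatocyte markers were well above background on these arrays, among them Alb, which encodes albumin.

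None of the 27 tested genes passed the adjusted threshold of 0.05 in limma, and their adjusted p-values lay between 0.435 and 0.998. Over all 29939 tested features (named genes and unnamed probes) 2 passed, a share of 0.00668%. The mean was higher in BBMP livers for 20 of the 27 genes and lower for 7, and the differences ran between −0.20 for Ercc2 and 0.47 for Chek2. The median difference was 0.05, against −0.01 over all features. At an unadjusted p under 0.05, 1 of 27 genes, Chek2, was called (3.70%), against 10.8% of all features and 8.41% of tested named genes. The groups did not overlap for 2 genes (7.41%), Ogg1 and Xpa, both higher in BBMP livers, against 17.9% of all features (8.35% higher and 9.56% lower).

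**Figure D1:**
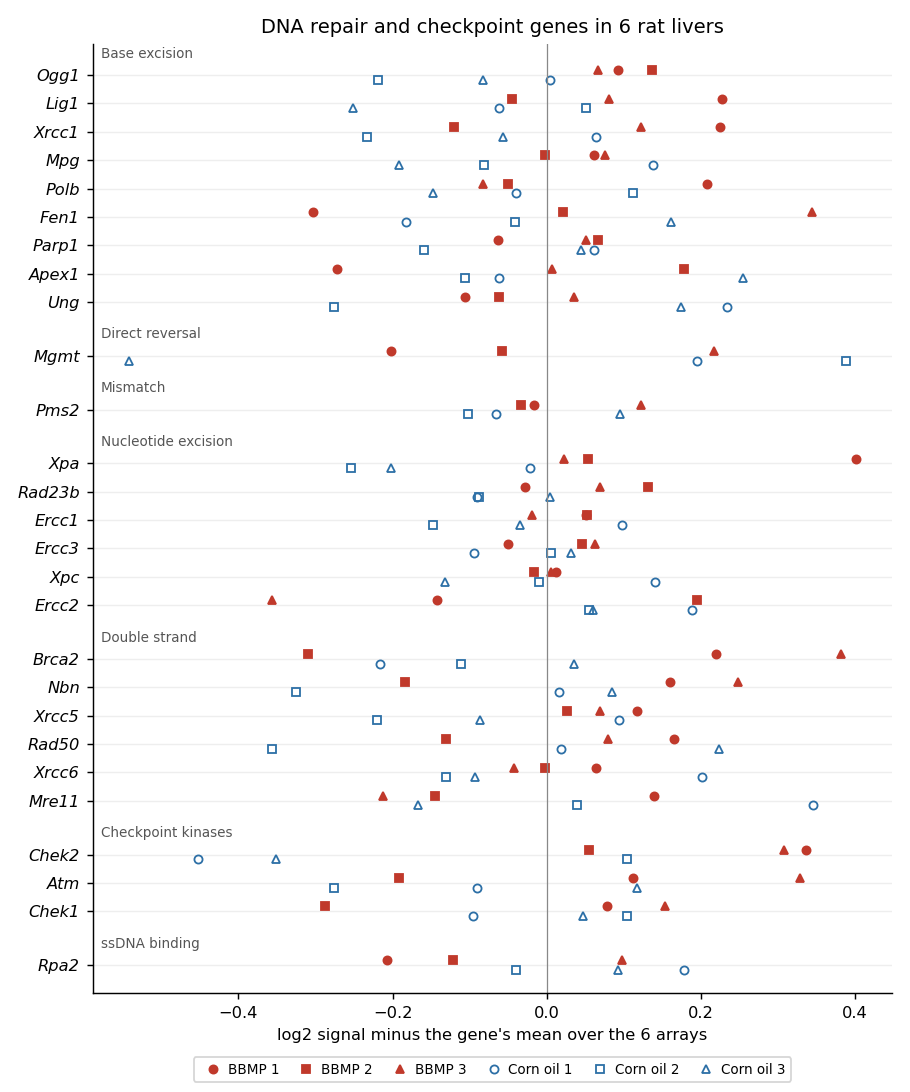
Each row is 1 of the 27 tested genes, grouped by repair route, and each point is 1 array (filled red, BBMP; open blue, corn oil), placed at its log2 signal minus the gene's mean over the 6 arrays. The red points lie wholly to the right of the blue points for Ogg1 and Xpa only, and corn oil 2 is the leftmost point in 12 rows.

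The differences were small as well as uncalled. The median size of the difference, whatever its sign, was 0.090 log2 units for the 27 genes. It was 0.145 for all features and 0.127 for all tested named genes. The median SE was 0.135, against 0.144 for all features and 0.135 for all tested named genes. The 95% interval of every one of the 27 genes lay within ±1, that is, within a 2-fold change in either direction. This held for all 27 in most other ways of processing the data. The exceptions were the fit with the replicate number as a block and the fit without BBMP rat 2, with 26 genes each, and the unmoderated Welch test, with 25. A narrower range of ±0.5 held the interval of 19 genes (70.4%), against 47.5% of all features and 54.2% of tested named genes.

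**Figure D2:**
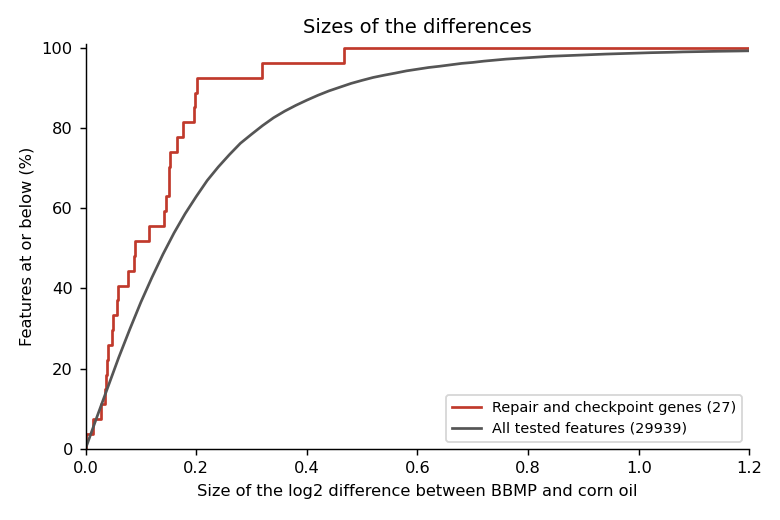
The step line gives the percentage of the 27 repair and checkpoint genes whose log2 difference between BBMP and corn oil is at or below the size on the x axis, and the smooth line gives the same for all 29939 tested features. The step line lies above the smooth line over most of the range and reaches its last gene, Chek2, at 0.47.

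Corn oil rat 2 was the lowest of the 6 arrays for 12 of the 27 genes (44.4%), against 22.3% of all features. Without it, 17 of the 27 means were higher in BBMP livers and the median difference was 0.03, against −0.01 over all features. Chek2 was again the gene at an unadjusted p under 0.05, where 6.93% of all features were called, and 5 genes (18.5%) no longer overlapped, against 24.3% of all features. The count at an unadjusted p under 0.05 was 0 without BBMP rat 1, BBMP rat 3, corn oil rat 1 or corn oil rat 3. It was 3 without BBMP rat 2 (Ercc2, Brca2 and Chek2; 11.1%, against 8.90% of all features). The part of the corn oil 2 array in the 20 to 7 split was not tested beyond these values.

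Base excision repair was represented by 9 tested genes of 10, of which 7 had a higher mean and 2 a lower mean in BBMP livers, with a median difference of 0.05. None was called at an unadjusted p under 0.05 in limma, and all 9 intervals lay within ±0.5. Ogg1, the glycosylase that removes oxidised guanine, had levels of 1.42, 1.46 and 1.39 in BBMP livers, against 1.33, 1.11 and 1.24 in corn oil livers. Every BBMP value was above every corn oil value, by a narrow margin between BBMP rat 3 and corn oil rat 1. The difference was 0.20 ± 0.10 (SE), a 1.15-fold ratio with an interval of 0.972 to 1.35 (limma, adjusted p = 0.518). A second Ogg1 probe gave −0.35, −0.43 and −0.43 in BBMP livers, against −0.50, −0.71 and −0.61 in corn oil livers, again without overlap, with a difference of 0.20 ± 0.10. The 2 probes thus gave nearly the same small difference, and neither passed the threshold.

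Lig1, the DNA ligase that seals nicks in replication and in long-patch repair, had levels of 1.36, 1.09 and 1.21 in BBMP livers, against 1.07, 1.18 and 0.88 in corn oil livers. The groups overlapped, since corn oil rat 2 lay above BBMP rat 2. Its difference was 0.18 ± 0.12 (limma, adjusted p = 0.632). A second Lig1 probe read 0.96, 0.79 and 0.97 in BBMP livers, against 0.71, 0.69 and 0.59 in corn oil livers, with a difference of 0.24 ± 0.10 (limma, adjusted p = 0.474). On that probe the groups did not overlap, and the brighter probe fixed for the gene did not show the separation. The scaffold protein gene Xrcc1 differed by 0.15 ± 0.13, the alkyladenine glycosylase gene Mpg by 0.09 ± 0.11 and the repair polymerase gene Polb by 0.05 ± 0.13. Fen1, which cuts DNA flaps, differed by 0.04 ± 0.19, and Parp1, which senses strand breaks, by 0.04 ± 0.11. The means of Ung, the uracil glycosylase (−0.09 ± 0.16), and Apex1, the endonuclease that opens the strand at a missing base (−0.06 ± 0.16), were lower in BBMP livers. A second Mpg probe had the other sign, at −0.06 ± 0.13. Each of these intervals included 0.

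Mgmt encodes the protein that takes alkyl groups off guanine in 1 step. Its levels were 3.55, 3.70 and 3.97 in BBMP livers, against 3.95, 4.14 and 3.21 in corn oil livers. The corn oil livers held both the highest and the lowest value, and the BBMP values lay between them. The difference was −0.03 ± 0.26 with an interval of −0.65 to 0.59, the widest among the 27 genes (limma, adjusted p = 0.977). The SD was 0.21 in BBMP livers and 0.49 in corn oil livers.

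Pms2, which encodes a nuclease subunit that cuts the strand during mismatch repair, was the only tested gene of that route on the list. It read −0.77, −0.79 and −0.63 in BBMP livers, against −0.82, −0.86 and −0.66 in corn oil livers. Rat 3 was the highest of both groups, and the ranges overlapped. The difference was 0.05 ± 0.10 (limma, adjusted p = 0.887). Among the 16 other probes of tested genes that passed the filter, 13 had the sign of the probe used, and 1 lay over 0.5 away from it, a dim Pms2 probe. That probe read −4.70, −4.47 and −3.72 in BBMP livers, against −4.92, −5.67 and −4.72 in corn oil livers. It was well above background on 3 of 3 BBMP arrays and 1 of 3 corn oil arrays, and its difference was 0.81 ± 0.34 (limma, adjusted p = 0.479 with every probe tested). The remaining Pms2 probe, well above background on all arrays, gave 0.04 ± 0.13.

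Nucleotide excision repair was represented by 6 tested genes of 7, of which 5 had a higher mean and 1 a lower mean in BBMP livers, with a median difference of 0.05. None was called at an unadjusted p under 0.05. Xpa, which checks the damaged strand in the incision complex, had levels of 0.65, 0.30 and 0.27 in BBMP livers, against 0.23, −0.01 and 0.05 in corn oil livers. The groups did not overlap, and BBMP rat 1 stood above all other animals. The difference was 0.32 ± 0.14, a 1.25-fold ratio with an interval of 0.989 to 1.57 (limma, adjusted p = 0.475). Ercc2, a helicase of the transcription factor complex TFIIH, had levels of −2.80, −2.46 and −3.01 in BBMP livers, against −2.47, −2.60 and −2.59 in corn oil livers. The BBMP values spread over the corn oil values, since BBMP rat 2 was the highest of the 6 and BBMP rat 3 the lowest. The difference was −0.20 ± 0.16 (limma, adjusted p = 0.659).

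The damage sensor genes of this route also lay close together in both groups. Rad23b, which stabilises the sensor XPC, differed by 0.12 ± 0.09, and Xpc itself by 0.00089 ± 0.10. The second TFIIH helicase gene, Ercc3, differed by 0.04 ± 0.09, and Ercc1, a subunit of the nuclease that cuts 5′ of the lesion, by 0.06 ± 0.10. A second probe of each of these last 2 genes had the other sign, at −0.10 ± 0.09 for Ercc3, whose groups did not overlap on it, and −0.0011 ± 0.12 for Ercc1.

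Double-strand break repair was represented by 6 tested genes of 9, of which 5 had a higher mean and 1 a lower mean in BBMP livers, with a median difference of 0.11. None was called at an unadjusted p under 0.05, and no pair of groups was free of overlap. Xrcc5, which encodes the Ku80 subunit of the end-joining complex, had levels of 2.48, 2.39 and 2.43 in BBMP livers, against 2.46, 2.14 and 2.28 in corn oil livers. Only corn oil rat 1 reached the BBMP values. The difference was 0.14 ± 0.11 (limma, adjusted p = 0.670). A second Xrcc5 probe gave −0.81, −0.91 and −0.76 in BBMP livers, against −0.94, −1.32 and −1.01 in corn oil livers, with a difference of 0.27 ± 0.13 and no overlap. Xrcc6, which encodes the other Ku subunit, differed by 0.01 ± 0.12, and by 0.20 ± 0.16 on a second probe.

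Brca2, which acts in homologous recombination, had levels of −2.12, −2.65 and −1.96 in BBMP livers, against −2.56, −2.46 and −2.31 in corn oil livers. BBMP rat 2 was below every corn oil animal, and the other BBMP animals were above every one. The difference was 0.20 ± 0.19 (limma, adjusted p = 0.735). The 3 subunits of the complex that first binds broken ends differed by 0.15 ± 0.17 for Nbn, 0.08 ± 0.17 for Rad50 and −0.15 ± 0.17 for Mre11. Brca1, a recombination gene, never stood well above background. Its probe read −6.11, −7.33 and −6.36 in BBMP livers, against −6.07, −6.63 and −7.49 in corn oil livers, and no fold is given for it.

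The checkpoint kinases were represented by 3 tested genes of 4, with a median difference of 0.17. Chek2, which acts on p53 and CDC25 phosphatases downstream of ATM, had levels of −2.86, −3.14 and −2.89 in BBMP livers, against −3.65, −3.09 and −3.54 in corn oil livers. Corn oil rats 1 and 3 were the lowest of the 6, but corn oil rat 2 lay above BBMP rat 2, so the groups overlapped. The difference was 0.47 ± 0.17, a 1.38-fold ratio with an interval of 1.03 to 1.85 (limma, adjusted p = 0.435). A second, dimmer Chek2 probe read −3.30, −4.16 and −3.74 in BBMP livers, against −3.88, −3.84 and −4.14 in corn oil livers. It gave a difference of 0.22 ± 0.22, with BBMP rat 2 the lowest of all. With normexp background correction the difference of the brighter probe was 0.17, and Chek2 was then not called at an unadjusted p under 0.05. Atm, the kinase activated by double-strand breaks, had levels of −3.47, −3.77 and −3.25 in BBMP livers, against −3.67, −3.86 and −3.46 in corn oil livers. Its groups overlapped and the difference was 0.17 ± 0.17 (limma, adjusted p = 0.744). Chek1, the kinase downstream of ATR, differed by −0.04 ± 0.14.

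Rpa2, a subunit of the complex that coats single-stranded DNA, had levels of −1.04, −0.96 and −0.74 in BBMP livers, against −0.66, −0.88 and −0.75 in corn oil livers. BBMP rats 1 and 2 were the lowest of the 6, while BBMP rat 3 lay among the corn oil animals. The difference was −0.15 ± 0.12 (limma, adjusted p = 0.666).

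**Figure D3:**
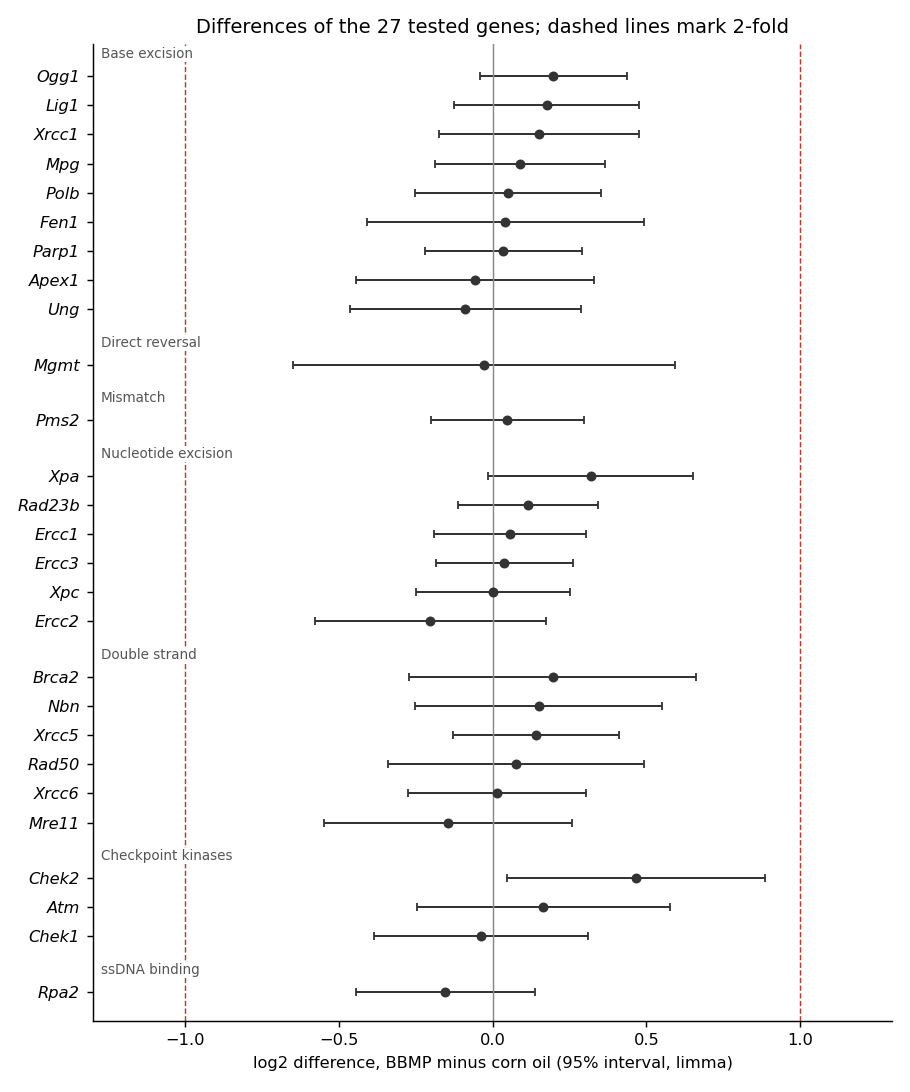
Points give the log2 difference, BBMP minus corn oil, of each of the 27 tested genes, bars give the 95% interval from limma, and dashed lines mark a 2-fold change. All intervals lie inside the dashed lines, and the interval of Chek2 (0.05 to 0.89) is the only one that does not include 0.

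The other genes of the same routes, 103 listed of which 72 were tested, were measured on the same arrays. None passed the adjusted threshold in limma, 40 means were higher and 32 lower in BBMP livers, and the median difference was 0.02. At an unadjusted p under 0.05, 4 of 72 (5.56%) were called, 1 higher and 3 lower, against 10.8% of all features, and 8 (11.1%) did not overlap, against 17.9%.

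All 8 other genes of mismatch repair and direct reversal were tested, with 4 means higher and 4 lower in BBMP livers. At an unadjusted p under 0.05, 3 (37.5%) were called, 1 higher and 2 lower, against 10.8% of all features. The groups did not overlap for 3 (37.5%), against 17.9%. Msh3, a mismatch repair gene of this list whose protein recognises large loops, had levels of 0.63, 0.48 and 0.55 in BBMP livers, against 0.89, 0.90 and 0.88 in corn oil livers. Every BBMP value was below every corn oil value, and the corn oil values lay close together. The difference was −0.33 ± 0.09 (limma, adjusted p = 0.394), which did not pass the threshold.

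Among the other double-strand break genes, 17 of 27 were tested and 1 (5.88%) was called at an unadjusted p under 0.05, against 10.8% of all features. That gene, Rad51ap1, also acts in homologous recombination. It had levels of −5.12, −4.63 and −4.44 in BBMP livers, against −3.93, −4.00 and −3.99 in corn oil livers, and was well above background on 2 of 3 BBMP arrays and 3 of 3 corn oil arrays. The difference was −0.76 ± 0.18 (limma, adjusted p = 0.379). It was −0.25 with normexp background correction and −0.29 with the mean of its probes, and the gene was not tested where all 6 arrays had to be well above background. The resolvase gene Gen1 differed by −0.44 ± 0.21 on the probe used, but by 0.024 with the mean of its probes, and the polymerase gene Poll by −0.22 ± 0.12.

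No gene was called at an unadjusted p under 0.05 among the other base excision genes (13 tested of 16), nucleotide excision genes (11 of 17), Fanconi anaemia and translesion genes (10 of 18) and checkpoint genes (13 of 17). The genes with the smallest p in these lists were Aplf (0.46 ± 0.25), a factor that binds poly-ADP-ribose, and Tdp1 (0.20) and Pcna (0.17). They were Mnat1 (0.21), Ccnh (0.16) and Ercc6 (−0.20) in nucleotide excision, and Ube2t (0.55 ± 0.24), Rev3l (0.22) and Mad2l2 (−0.10) in the Fanconi and translesion list. With normexp background correction the difference of Ube2t was 0.095 and that of Mad2l2 was 0.057. In the checkpoint list they were Wee1 (−0.31 ± 0.15), which delays mitosis, Atrip (−0.18), the partner of ATR, and Cdc25a (0.18), a phosphatase that CHEK1 and CHEK2 act on.

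Genes of replication and S phase were measured beside the repair genes, since many repair genes are also transcribed in S phase. Of 23 tested genes of 30, 11 means were higher and 12 lower in BBMP livers, and none passed the adjusted threshold. At an unadjusted p under 0.05, 2 (8.70%) were called, both higher. Of all features, 10.8% were called in either direction and 4.77% higher. The called genes were Tyms, the thymidylate synthase gene (0.47 ± 0.17), and Rrm2, a ribonucleotide reductase subunit gene (0.48 ± 0.20). The cyclin gene Ccne1 differed by −0.40 ± 0.20. Of 18 tested p53 target genes of 23, 8 means were higher and 10 lower in BBMP livers. At an unadjusted p under 0.05, 2 (11.1%) were called, both lower, against 10.8% of all features in either direction and 6.07% lower. These were Phlda3 (−0.94 ± 0.24) and the cell death gene Bbc3 (−0.49 ± 0.17), and Sesn2 differed by −0.32. Xpc, a repair gene that p53 also activates, differed by 0.00089.

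A list score, the mean over a list's tested genes of the log2 signal minus each gene's mean over the 6 arrays, gave the repair routes array by array. Base excision scored 0.01, 0.01 and 0.08 in BBMP livers, against 0.02, −0.11 and −0.01 in corn oil livers. Double-strand break repair scored 0.14, −0.12 and 0.09 in BBMP livers, against 0.08, −0.18 and −0.00030 in corn oil livers. BBMP rat 2 was low beside the other BBMP animals and corn oil rat 2 low beside the other corn oil animals, and the groups overlapped. The checkpoint kinases scored 0.18, −0.14 and 0.26 in BBMP livers, against −0.21, −0.02 and −0.06 in corn oil livers, with BBMP rat 2 again below the others of its group. Nucleotide excision repair scored 0.04, 0.08 and −0.04 in BBMP livers, against 0.04, −0.07 and −0.05 in corn oil livers. There BBMP rat 2 was the highest of the 6.

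Markers of other liver cell types were read on the same arrays. All 10 Kupffer cell and macrophage markers were tested and all 10 had a higher mean in BBMP livers, none at an unadjusted p under 0.05 in limma, with a median difference of 0.33. Their summed linear level, relative to the 75th percentile, ranged from 125.2 to 177.9 in BBMP livers, against 103.6 to 165.1 in corn oil livers. The bright Clec4f and C1qb probes weigh most in that sum. The list score of the 10 markers was 0.26, −0.26 and 0.51 in BBMP livers, against −0.44, −0.41 and 0.34 in corn oil livers. BBMP rat 2 was low in both the Kupffer score and the checkpoint kinase score, but the highest of the 6 in the nucleotide excision score. The part of Kupffer cells or other non-hepatocyte cells in the repair values was not tested. In bulk liver, fewer cells of a type and less RNA per cell cannot be told apart. Of 8 stellate cell markers, 5 means were lower and 3 higher in BBMP livers. At an unadjusted p under 0.05, 3 (37.5%) were called, all lower (Lrat, Pdgfrb and Col3a1). Of all features, 10.8% were called in either direction and 6.07% lower. The stellate markers with a higher mean were Des (0.18, groups not overlapping), Dcn (0.17) and Acta2 (0.08). The summed level of all 8, in which the bright Col3a1 probe weighs most, ranged from 23.9 to 28.0 in BBMP livers, against 30.2 to 35.5 in corn oil livers. Of the endothelial (5 tested), cholangiocyte (5), T and NK cell (6), B cell (3) and neutrophil (3) markers, 1 was called at an unadjusted p under 0.05. Of all features, 10.8% were called. The called marker was the cholangiocyte marker Cftr (−0.52, lower). Of the 5 cholangiocyte markers, 3 means were lower and 2 higher in BBMP livers, the higher being Epcam (0.40) and Krt19 (0.07). Klrb1 and Elane never stood well above background.

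**Figure D4:**
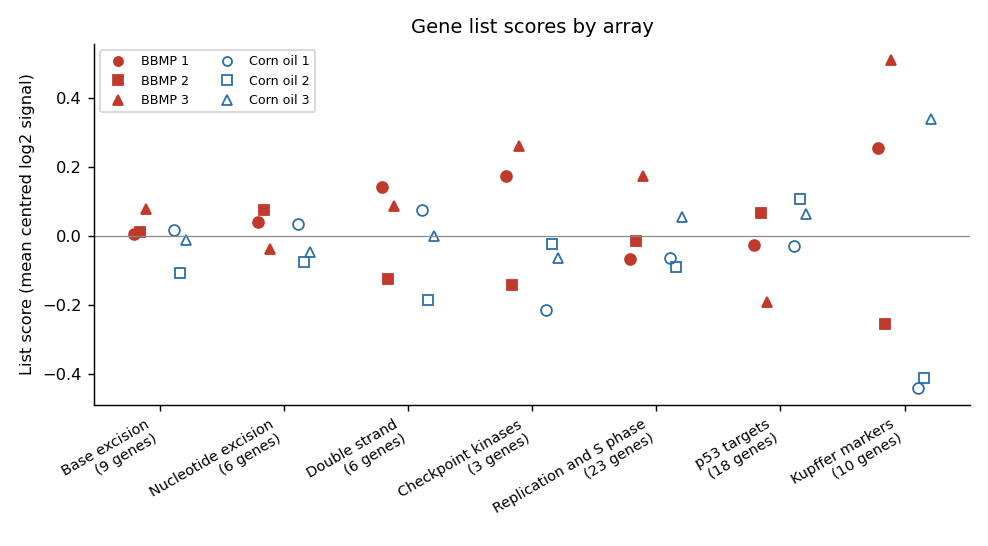
Points are single arrays (filled red, BBMP; open blue, corn oil) at the list score, the mean over a list's genes of the log2 signal minus the gene's mean over the 6 arrays, for 4 repair routes, replication genes, p53 targets and Kupffer cell markers. BBMP and corn oil points overlap in all 7 lists, and the spread is widest for the Kupffer markers.

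Across the 10707 other named genes well above background on all arrays, those most like Chek2 over the 6 arrays were Bco1 (Pearson r = 0.99), Sync (0.98), Crtc1 (0.98), Ormdl1 (0.97) and Gkap1 (0.96). These are descriptions over 6 points from 2 groups, picked as the highest of many. Their differences were 0.49 for Bco1, 0.38 for Sync, 0.32 for Crtc1, 0.21 for Ormdl1 and 0.19 for Gkap1, and none passed the adjusted threshold.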

How the data were processed

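Liver RNA of 6 rats was measured on 6 Agilent 1-colour arrays (design 035170, build rn4 per the file headers). The deposited scanner files hold linear intensity, background-subtracted by Feature Extraction 10.7.1.1 per the file headers (10.7 per the submitters' processing notes), and not normalized between arrays. The authors' deposited value table is linear intensity too: compared with the scanner values, each column equals the processed signal over 1 constant (0.996 to 0.998 of the array's 75th percentile; column medians 0.0971 to 0.1005; no centring by probe). It served as an alternative.

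From the deposited intensity, log2 values were computed here relative to each array's 75th percentile. Control spots (1319 of 62976), 84 spike-in probes and outlier-flagged spots (at most 21 per array) were left out. Unversioned accessions in the RefSeq table (GRCr8) named 27460 of 61573 probes (44.6%). A gene was represented by its brightest probe that passed, each unnamed probe was a feature of its own, and a test required 1 group with all 3 of its arrays well above background. Groups came from the labels. The test was limma's (lmFit, eBayes; version 3.58.1, R 4.3.3), two-sided, and p-values were adjusted by Benjamini-Hochberg over 29939 features. The fit was first tested on simulated data. Tables used Python 3.11.15, pandas 2.3.3 and numpy 2.4.6, and figures matplotlib 3.10.9.

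The listed genes, the other gene lists and the tests were chosen with earlier results of these data known. Values per array are given for listed genes at an unadjusted p under 0.05, the 2 of smallest p in each route, and Mgmt. Other probes are given where the sign differs or the difference lies over 0.5 away, and for Chek2, Ogg1, Lig1, Xrcc5, Xrcc6 and the remaining Pms2 probe, which were added after their values were seen. Up to 3 genes of smallest p are named from each other list. Some genes that this rule would name are not reported here. The marker genes named, Brca1 and Xpc as a p53 target are named outside this rule. Alternatives were another background correction (normexp, offset 50), normalization, filter, probe rule, moderation or test, a replicate block, the deposited value table, and each array left out.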

Additional observations from a re-analysis of the deposited data

How the results depend on the processing

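None of the 27 genes passed the adjusted threshold under any of 17 other settings, and the lowest adjusted p over all of them was 0.348, for Xpa with normexp. The features past that threshold, 2 of 29939 in the analysis reported above, numbered 0 with the filter on all 6 arrays, with normexp and with the Welch test, 1 with no filter, and 0 to 4 with 1 array left out (4 without corn oil rat 2). With the replicate number as a block they numbered 0. Same-numbered rats deviated together by correlations of 0.087, 0.017 and 0.068, and 4 of 6 animals matched their own number best. These values do not decide whether the numbers are pairs. The labels name no pairing, so the main fit did not take the numbers as pairs. Over the 17 settings, 6.93% to 11.7% of all features were called at an unadjusted p under 0.05. The block kept 1 of the 27 genes at that level, Xpa in place of Chek2. That count, 1 above, was 2 with every probe tested (Chek2 and a second Lig1 probe), 2 with median scaling or trended robust moderation (Chek2 and Xpa), 2 with normexp (Ogg1 and Xpa, not Chek2, whose difference was then 0.17), 0 with the mean of probes or the Welch test, and 0 to 3 with 1 array left out. With every probe tested, the count without overlap was of probes and not of genes, so it does not compare with the 2 above. It was 7, among the 27 probes used and 16 others that passed the filter, and no share over all features stands beside it. The 7 include both Ogg1 probes, an Ercc3 probe lower in BBMP livers, and the dim Pms2 probe, which passed only through the BBMP arrays. With 1 array left out, the genes without overlap numbered 3 to 8, where fewer samples leave fewer values to overlap. Without BBMP rat 1 they numbered 4 (14.8%, against 26.5% of all features), without BBMP rat 2, 8 (29.6%, against 28.7%). Without BBMP rat 3 they numbered 3 (11.1%, against 28.9%). For corn oil rats 1, 2 and 3 they numbered 6 (22.2%, against 31.6%), 5 (18.5%, against 24.3%) and 4 (14.8%, against 30.9%). The median of mismatch repair was 0.30 with the mean of probes, which brings in the dim Pms2 probe, and that of nucleotide excision repair was 0.11 with normexp. Of the 27 genes, 14 kept their sign under every setting and 13 did not, and the largest size among those 13 was 0.088. Among the 27, the sign turned with the mean of probes for Ercc3 (−0.029), and with normexp for Apex1 (0.023), Chek1 (0.031), Fen1 (−0.0042) and Rad50 (−0.10). Outside the 27 it turned for Gen1 with the mean of probes (0.024) and for Mad2l2 with normexp (0.057). Without a turn of sign, normexp gave 0.19 for Ercc1, −0.25 for Rad51ap1, 0.095 for Ube2t, −0.049 for Atrip, 0.061 for Tdp1 and 0.27 for Pcna, and the mean of probes gave −0.29 for Rad51ap1 and 0.0057 for Cdc25a. With 1 array left out, the difference ran between −0.16 and 0.064 for Apex1, −0.31 and 0.16 for Mgmt, −0.042 and 0.12 for Polb, −0.065 and 0.071 for Xpc, −0.048 and 0.12 for Xrcc6, −0.12 and 0.10 for Chek1, −0.12 and 0.20 for Fen1, −0.00060 and 0.11 for Pms2, −0.25 and 0.0071 for Ung, −0.0039 and 0.12 for Ercc1, −0.035 and 0.076 for Parp1, and −0.083 and 0.21 for Rad50. The cause of these changes was not tested. Dim probes, among them those of Brca1, Rad51ap1 and 1 Pms2 probe, are limited by signal over background.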
